A study of Mus musculus with 8 samples.

Results

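Fibroblast growth factor (FGF) signaling was examined here as a gene family, from the ligand to the docking proteins just under the receptor, in cells with and without NG2/CSPG4. The genes were taken by name, but the family was chosen with earlier results of these data known. They are every mouse gene named Fgf with a number, the 4 receptor tyrosine kinases Fgfr1 to Fgfr4 and the kinase-less receptor Fgfrl1. The carrier proteins Fgfbp1 and Fgfbp3, the Klotho coreceptors Kl and Klb, and the docking proteins Frs2 and Frs3 were also taken. This gives 33 genes out of 55401 genes in the table. Of these, 22 are counted as ligands by name, including the FGF homologous factors Fgf11 to Fgf14, which are not secreted.

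Most FGF ligands are secreted, are held in the matrix by heparan sulfate, and activate a receptor tyrosine kinase at the surface of the same or a neighboring cell. The receptor phosphorylates the docking protein Frs2, which couples it to the Ras and ERK 1/2 cascade, and the Sprouty, Spred and Dusp proteins act as feedback inhibitors of that cascade. In cartilage, FGF2 is stored in the pericellular matrix, FGF18 is an anabolic ligand for chondrocytes and FGFR3 restrains chondrocyte proliferation in the growth plate.

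The cells were primary mandibular fibrochondrocytes, which are cells grown out of the fibrocartilage that covers the mandibular condyle of the temporomandibular joint (TMJ). Cells of 4 global NG2/CSPG4 knockout cultures (NG2ko) were compared with cells of 4 wild-type cultures (WT) by poly(A) RNA sequencing. NG2/CSPG4 is a transmembrane chondroitin sulfate proteoglycan, and its knockout allele is a LacZ-tagged deletion. The study received the allele on a 6N line and backcrossed it to C57BL/6J for a few generations before a homozygous colony was set up. The wild-type mice were purchased C57BL/6J mice, so any remaining strain difference and the genotype cannot be told apart. In both groups the donors were pups of 10 to 14 days by the labels and of 14 days by the study's sequencing methods, the cells were used at passage 4 under normal growth conditions, and no drug or load was applied. The knockout is present in every cell of the mouse, so a change in these cultures may have arisen before the cells were isolated. The study calls the 4 cultures of a group biological replicates, but how many pups gave cells to each is not given in the sources used here.

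The libraries held 60317187 to 83668935 counts. The targeted gene Cspg4 matched the labels in each of the 8 libraries, with 6.93 to 13.5 CPM (counts scaled to library size) in NG2ko and 201.0 to 241.2 CPM in WT. Cartilage genes were expressed in both groups, with Col2a1 at 8.18 to 9.54 FPKM in NG2ko and 4.40 to 5.06 FPKM in WT, while Matn3 was at or near 0. Of 10 fibrochondrocyte marker genes tested, 4 were higher in NG2ko (log2 fold changes 0.83 for Col2a1, 0.79 for Hapln1, 0.71 for Comp and 0.27 for Sox9) and none was lower. FPKM is fragments per kilobase of transcript scaled to library size, a level that can be compared between genes. The groups also differed in ways that are not the targeted gene. The 4 Y-linked genes summed to 187.7 to 202.0 CPM in NG2ko and to 0 to 0.286 CPM in WT, so the sex of the donors and the genotype cannot be told apart. Of 24 myeloid marker genes tested, 20 were higher in NG2ko, and the whole list of 26 summed to 391.2 to 455.6 CPM against 114.4 to 136.0 CPM. In these bulk samples, a change in the number of cells that express a gene and a change in RNA per cell cannot be told apart. The part of the Y-linked, myeloid and cartilage marker differences, and of any remaining strain difference, in the results that follow was not tested.

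Of the 33 genes, 19 had enough counts to be tested (12 of the 22 ligands, 3 of the 4 receptors, Fgfrl1, Fgfbp3, Frs2 and Frs3), and 7 of these changed. Fgf10, Fgfr3, Fgfr2 and Fgf21 were higher in NG2ko, and Fgfr1, Fgf13 and Fgf7 were lower, by edgeR's quasi-likelihood test at an adjusted p under 0.05 over all 17190 genes tested. The 4 higher genes are 21.1% of the 19, where 5.45% of all genes tested were higher, and the 3 lower genes are 15.8%, where 6.75% of all genes tested were lower. With so few genes, neither share was tested against the other genes. The median log2 fold change of the 19 was -0.09, against 0.02 for all genes tested. In all 7 changed genes no NG2ko library overlapped a WT library, a separation that 19.9% of all genes tested showed (9.81% with NG2ko above and 10.1% with NG2ko below), and none of the other 12 showed it. At the limits the study set on its own comparison, an unadjusted p under 0.05 with a log2 fold change beyond 1 or -1, Fgf10 and Fgfr3 remained and no lower gene did, against 2.06% of all genes tested that were higher and 1.15% that were lower at those limits.

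**Figure D1:**
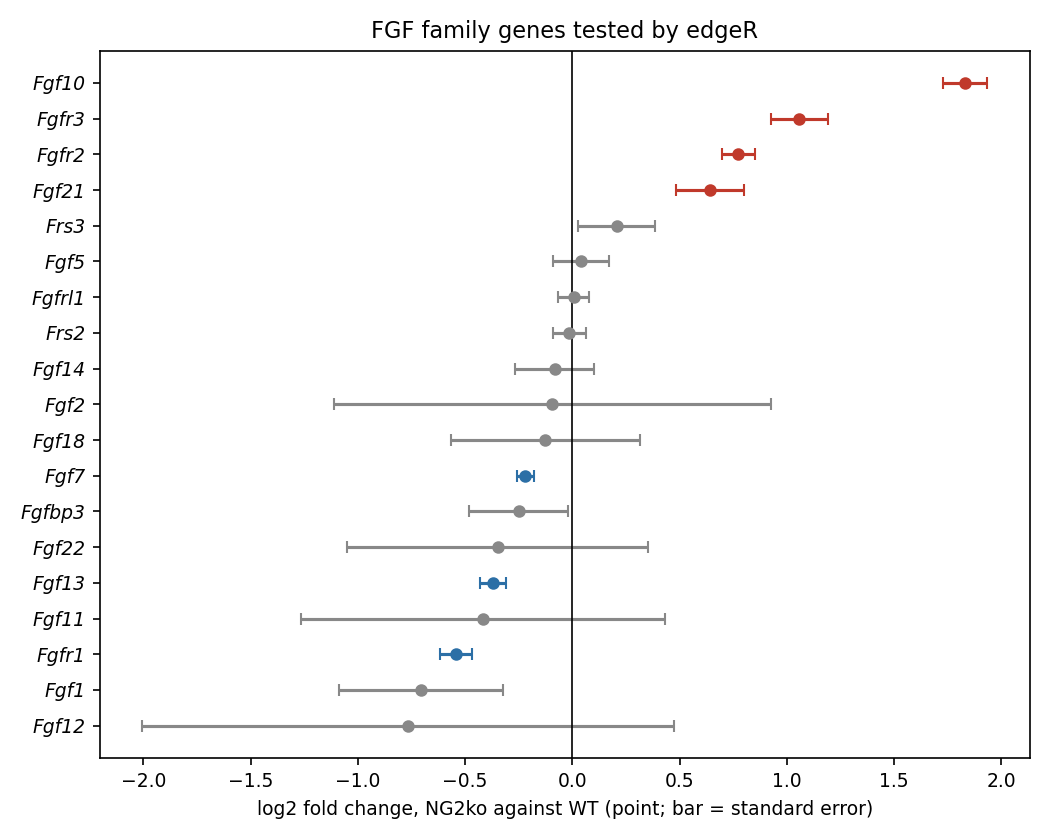
The log2 fold change of each of the 19 tested FGF family genes in NG2ko against WT, with the standard error as a bar (red, higher; blue, lower; gray, adjusted p of 0.05 or more). Fgf10 is farthest to the right at 1.83, and the wide bars belong to Fgf2 and to genes with few counts such as Fgf12.

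The promoters of the changed genes that the results turn on are shown so that their bases can be compared. Each runs from 250 bases before to 50 bases after the RefSeq transcription start on the GRCm38.p6 mouse assembly and is printed 5′ to 3′ on the strand of the gene. Fgf10 and Fgf7 are a pair of ligands for the same receptor form that moved in opposite directions, Fgfr2 and Fgfr3 are the receptors that rose, and Fgf21 is the higher gene whose window holds a motif match. The windows are chr13:118714449-118714748 (plus strand) for Fgf10, chr2:126034408-126034707 (plus) for Fgf7, chr7:130266759-130267058 (minus) for Fgfr2, chr5:33721474-33721773 (plus) for the first of 2 Fgfr3 entries and chr7:45615441-45615740 (minus) for Fgf21. Capitals mark a motif match.
Fgf10: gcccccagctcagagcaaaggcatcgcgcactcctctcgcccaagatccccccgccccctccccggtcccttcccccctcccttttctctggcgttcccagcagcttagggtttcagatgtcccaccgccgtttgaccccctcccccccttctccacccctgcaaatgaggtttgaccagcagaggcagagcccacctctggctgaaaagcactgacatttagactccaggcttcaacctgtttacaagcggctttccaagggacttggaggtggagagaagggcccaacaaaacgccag
Fgf7: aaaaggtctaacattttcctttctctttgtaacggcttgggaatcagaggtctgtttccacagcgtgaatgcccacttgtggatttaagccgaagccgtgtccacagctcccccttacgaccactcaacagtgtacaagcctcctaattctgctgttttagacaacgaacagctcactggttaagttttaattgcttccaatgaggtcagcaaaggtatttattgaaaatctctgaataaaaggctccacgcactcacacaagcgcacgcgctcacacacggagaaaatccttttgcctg
Fgfr2: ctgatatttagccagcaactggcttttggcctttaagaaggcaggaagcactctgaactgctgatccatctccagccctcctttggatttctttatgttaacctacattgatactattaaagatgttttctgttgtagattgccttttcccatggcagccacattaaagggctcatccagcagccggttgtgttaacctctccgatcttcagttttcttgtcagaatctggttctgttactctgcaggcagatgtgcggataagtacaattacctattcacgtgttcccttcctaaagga
Fgfr3: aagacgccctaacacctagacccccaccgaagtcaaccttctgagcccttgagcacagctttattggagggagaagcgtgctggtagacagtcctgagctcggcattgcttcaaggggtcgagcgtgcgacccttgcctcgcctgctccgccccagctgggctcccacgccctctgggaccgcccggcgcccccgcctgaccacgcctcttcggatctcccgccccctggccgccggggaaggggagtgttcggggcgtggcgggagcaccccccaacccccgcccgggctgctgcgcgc
Fgf21: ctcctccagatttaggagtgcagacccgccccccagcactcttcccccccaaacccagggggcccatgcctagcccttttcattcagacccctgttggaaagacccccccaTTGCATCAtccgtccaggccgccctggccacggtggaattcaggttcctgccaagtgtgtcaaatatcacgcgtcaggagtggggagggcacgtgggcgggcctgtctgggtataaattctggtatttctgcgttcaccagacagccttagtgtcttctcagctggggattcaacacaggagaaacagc

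The capitals in Fgf21 are TTGCATCA, a composite C/EBP-ATF element of the kind that ATF4 binds, and they begin 139 bases before the start. This element was found in 0.895% of 32851 promoters of the same length. The other letters searched, on both strands, were TGANTCA (AP-1, in 7.81% of promoters), CCGGAAGT (an ETS element, in 3.89%) and a serum response element (in 0.0639%), and the match in Fgf21 overlaps none of them. None of the 4 was found in the other windows shown. Among the windows not shown, an AP-1 match was present in 1 of 4 entries of Fgf13, which was lower, and in 1 of 4 entries of Fgf12, and an ETS match in those of Fgfrl1 and Frs2. Fgf12, Fgfrl1 and Frs2 did not pass the test. The base composition of the windows differed widely: 69.7% G and C with 26 CpG in Fgfr3, 60.7% with 10 CpG in Fgf10, 58.0% with 9 CpG in Fgf21, 45.7% with 11 CpG in Fgf7 and 43.7% with 4 CpG in Fgfr2, against medians of 52.7% and 7 CpG over all promoters. A match describes the letters only, and 26 of the 33 genes had a promoter entry. Fgfr1, which was lower, had no entry, so its promoter was not searched.

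The ligands of the FGF7 subfamily are made by mesenchymal cells and signal mainly to the epithelial splice form of FGFR2. Fgf10 (ENSMUSG00000021732; GRCm38 chromosome 13, 118669791 to 118789334, plus strand), known for its role in the outgrowth of limb and lung buds, had the largest fold change of the tested FGF genes that passed. It was at 3.77, 3.86, 3.71 and 3.55 CPM in WT replicates 1 to 4 and at 12.6, 12.0, 12.9 and 15.5 CPM in NG2ko replicates 1 to 4. The lowest NG2ko library was thus far above the highest WT library, and the WT libraries lay close together. The means were 13.3 ± 1.56 CPM in NG2ko and 3.72 ± 0.132 CPM in WT (SD, n = 4), which is 3.56-fold higher in NG2ko (log2 fold change 1.83, standard error 0.10, edgeR adjusted p = 6.47e-06). These values rest on 808 to 1088 counts per library in NG2ko and 224 to 318 in WT.

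Fgf7 (ENSMUSG00000027208; chromosome 2, 126034658 to 126091185, plus strand), also called keratinocyte growth factor, moved the other way and by much less. Its CPM was 216.1, 224.1, 219.9 and 225.3 in WT and 196.3, 191.2, 185.2 and 188.3 in NG2ko. The groups did not overlap, and Fgf7 fell by 0.22 on the log2 scale (standard error 0.04, edgeR adjusted p = 0.00717). It was still the most abundant FGF RNA of the cells, at 60.8 ± 0.948 FPKM in WT and 53.7 ± 1.40 FPKM in NG2ko (SD, n = 4). Fgf7 and Fgf10 were therefore at very unequal levels in both groups, but less so in NG2ko. The ratio of Fgf7 FPKM to Fgf10 FPKM was 81.4 to 90.3 in the WT libraries and 17.2 to 22.6 in the NG2ko libraries. Fgf22, another ligand of this subfamily, had 6 to 41 counts per library and did not pass (log2 fold change -0.35, adjusted p = 0.818), and Fgf3 had 0 counts in every library.

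**Figure D2:**
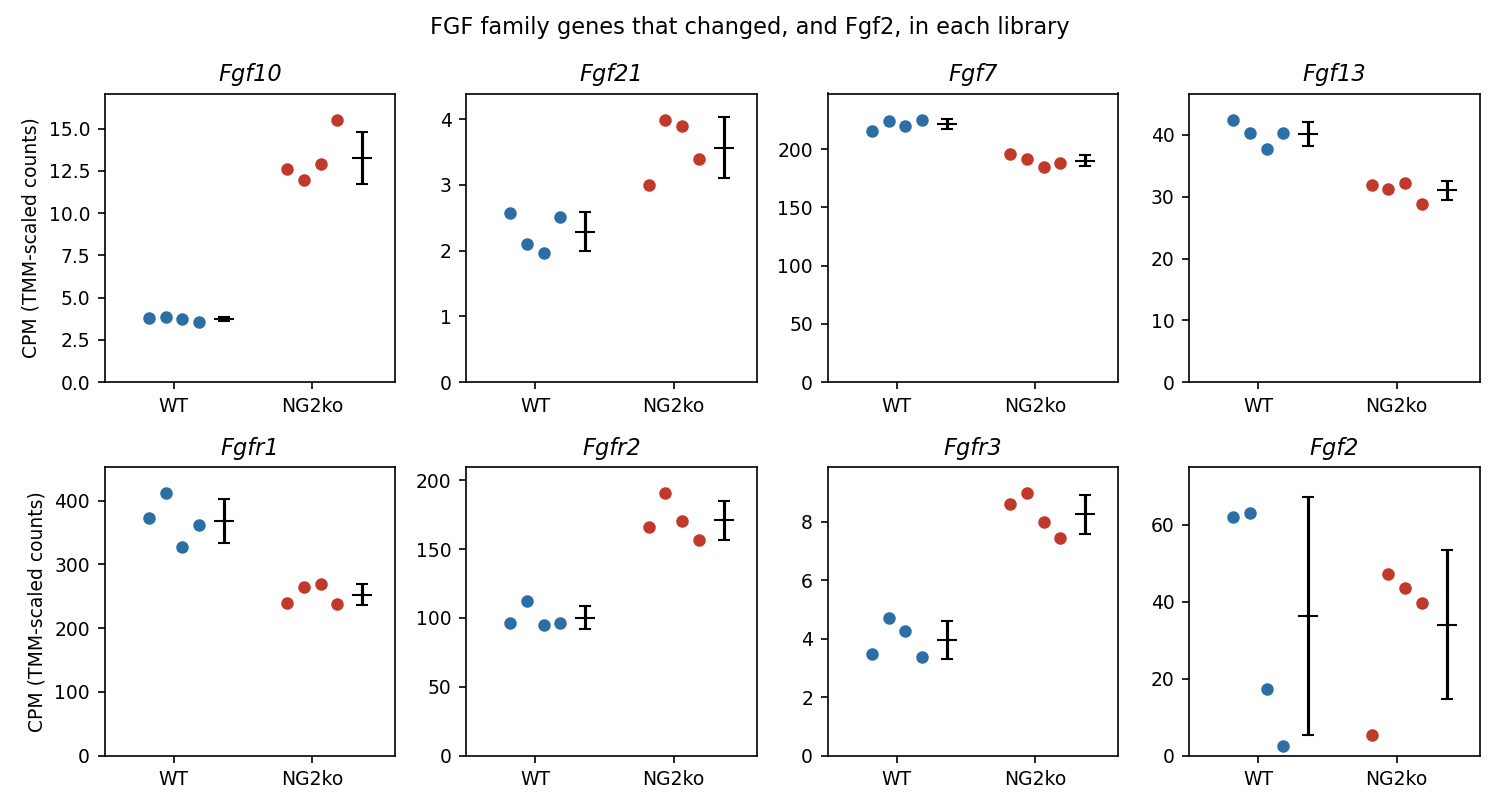
CPM of the 7 changed FGF genes and of Fgf2 in each library (points; WT blue, NG2ko red, replicates 1 to 4 from left to right), with the group mean and SD in black and every axis starting at 0. The 2 groups are apart in every panel but that of Fgf2, where the values run from 2.63 to 63.1 CPM in WT.

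Among the endocrine FGFs, which act at a distance with a Klotho coreceptor, Fgf21 (ENSMUSG00000030827; chromosome 7, 45613886 to 45615490, minus strand) was detected at a low level and was higher in NG2ko. FGF21 is best known as a metabolic hormone from the liver that is induced by fasting and by the integrated stress response. It was at 2.58, 2.10, 1.97 and 2.51 CPM in WT and 2.99, 3.99, 3.89 and 3.40 CPM in NG2ko. The groups did not overlap, but the highest WT library and the lowest NG2ko library were close. The fold was 1.56 (log2 fold change 0.64, standard error 0.16, edgeR adjusted p = 0.0262). The call was lost when NG2ko replicate 2, 3 or 4 or WT replicate 2 or 3 was left out, with adjusted p = 0.0734, 0.0790, 0.0525, 0.0627 and 0.0644, and the log2 fold change then lay between 0.57 and 0.66. Its coreceptor Klb (beta-Klotho) had 8 counts in 1 NG2ko library, 4 in 1 WT library and 0 in the other 6. Fgf23, the phosphate-regulating hormone of bone cells, had 8 and 4 counts in 2 NG2ko libraries and 0 elsewhere, and Fgf15 and Kl had 0 counts in every library. A count of 0 would allow up to 3 counts, or 0.0364 to 0.0505 CPM by library, if counts were independent fragments, which the lowest counts of this table do not appear to be.

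The FGF homologous factors (Fgf11 to Fgf14) are not secreted and instead bind voltage-gated sodium channels and other proteins inside the cell. Fgf13 (ENSMUSG00000031137; chromosome X, 59062145 to 59568071, minus strand) was the abundant member, at 8.91 ± 0.392 FPKM in WT and 7.07 ± 0.299 FPKM in NG2ko (SD, n = 4). In CPM it was at 42.4, 40.3, 37.7 and 40.3 in WT and 31.9, 31.3, 32.1 and 28.9 in NG2ko. All NG2ko libraries were below all WT libraries, and Fgf13 fell by 0.37 on the log2 scale (standard error 0.06, edgeR adjusted p = 0.00313). It lies on the X chromosome, whose dose can differ with the sex of the donors. Fgf14 was at 1.28 to 1.73 CPM in NG2ko and 1.34 to 1.71 CPM in WT (adjusted p = 0.839). Fgf11 and Fgf12 had at most 33 counts in any library and adjusted p = 0.820 and 0.767. Of the genes for sodium channel subunits and other partners, 7 of 14 could be tested, of which 1 was higher, 1 was lower and 5 did not pass. Scn3a, a channel subunit gene, was higher (3.10 ± 0.537 against 0.958 ± 0.451 CPM, log2 fold change 1.69, adjusted p = 0.00841). Scn2a did not pass (log2 fold change -0.24, adjusted p = 0.309).

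Fgf2, basic FGF, which binds heparan sulfate in the pericellular matrix, could not be compared between the genotypes given how much it varied within them. In WT replicates 1 to 4 it was at 62.0, 63.1, 17.4 and 2.63 CPM. In NG2ko replicates 1 to 4 it was at 5.49, 47.3, 43.7 and 39.8 CPM. The highest library of a group was 24.0-fold above the lowest in WT and 8.62-fold in NG2ko, with NG2ko replicate 1 and WT replicates 3 and 4 low. The means, 34.1 ± 19.3 and 36.3 ± 30.9 CPM (SD, n = 4), differed by far less than that spread (log2 fold change -0.09, standard error 1.02, edgeR adjusted p = 0.971), and the sign of the difference changed when single libraries were left out (range -0.49 to 0.32).

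Few genes at the level of Fgf2 spread as widely. Its within-group SD of log2(CPM + 0.5) was 1.77, and of the 5389 tested genes with a mean CPM at least as high, Fgf2 included, the median SD was 0.0942 and only 2 other genes had an SD as large. Next among the FGF genes, leaving out those whose mean was under 1 CPM, was Fgfbp3 at 0.274. In Fgf7 the same libraries held 196.3 (NG2ko replicate 1), 219.9 (WT replicate 3) and 225.3 CPM (WT replicate 4), close to the others of their group. Fgf2 (ENSMUSG00000037225; chromosome 3, 37348346 to 37410108, plus strand) overlaps Nudt6 on the opposite strand and shares 9.44% of its exonic bases with genes on that strand and 3.76% with a gene on its own strand. Nudt6 had 154, 89, 174 and 97 counts in NG2ko and 86, 80, 208 and 118 in WT, against 442, 3188, 3544 and 2788 and 3683, 5194, 1220 and 169 counts of Fgf2.

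**Figure D3:**
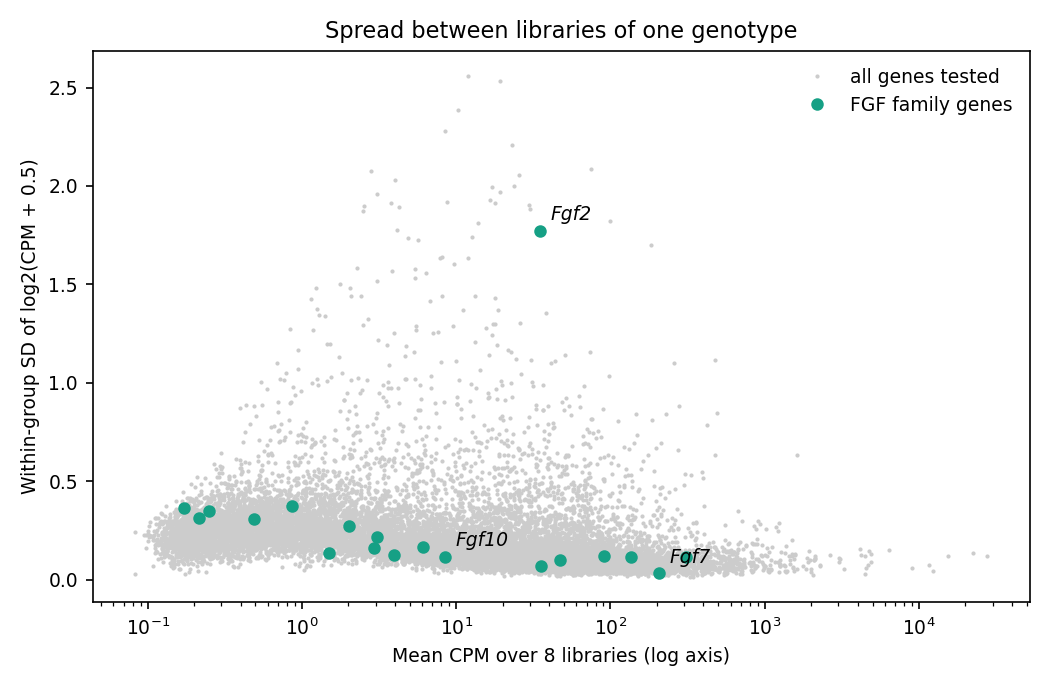
Within-group SD of log2(CPM + 0.5) against mean CPM over the 8 libraries (log axis) for all 17190 genes tested (gray) and the 19 FGF family genes among them (green). Fgf2 lies at an SD of 1.77, far above the other FGF genes, while Fgf7 and Fgf10 lie with the bulk of genes at their level.

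The remaining ligands did not pass the test or were too low for it. Fgf5, a ligand of the FGF4 subfamily that limits hair growth, was at 3.49 to 4.52 CPM in NG2ko and 3.42 to 4.22 CPM in WT (log2 fold change 0.04, adjusted p = 0.894). Fgf1, acidic FGF, which can activate all FGF receptors, was at 0.386 to 0.807 CPM in NG2ko and 0.5 to 1.52 CPM in WT (log2 fold change -0.71, standard error 0.38, adjusted p = 0.289). Fgf18 was at 0.345 to 0.608 CPM in NG2ko and 0.286 to 0.949 CPM in WT (adjusted p = 0.902). The groups overlapped in each of these 3 genes. Fgf9, which has roles in the skeleton and the gonad, had 10 and 23 counts in 2 NG2ko libraries and 4 and 8 in 2 WT libraries, with 0 in the other 4. Fgf16 had 4 and 8 counts in 2 NG2ko libraries and Fgf4 had 4 counts in 1 WT library. Fgf6, Fgf8, Fgf17 and Fgf20 had 0 counts in every library. Very low counts in this table do not run as those of single fragments would: 4 was the most frequent count above 0, with 7729 gene-by-library values against 2336 at 3 and 1315 at 5.

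The receptor RNAs changed in opposite directions, with Fgfr1 lower and Fgfr2 and Fgfr3 higher in NG2ko. Fgfr1 (ENSMUSG00000031565; chromosome 8, 25513654 to 25575718, plus strand), the main FGF receptor of mesenchymal cells, was at 372.2, 411.6, 326.9 and 362.4 CPM in WT and 239.1, 263.9, 269.2 and 238.0 CPM in NG2ko. Every NG2ko library was below every WT library, and the WT mean was 1.46-fold the NG2ko mean in the fit (log2 fold change -0.54, standard error 0.07, edgeR adjusted p = 0.00102).

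Fgfr2 (ENSMUSG00000030849; chromosome 7, 130162451 to 133123350, minus strand), a receptor of both epithelial and skeletal cells whose splice forms choose different ligands, was at 96.6, 112.5, 94.8 and 96.0 CPM in WT and 165.9, 190.5, 170.7 and 156.7 CPM in NG2ko. The groups were well apart, and Fgfr2 was 1.71-fold higher in NG2ko (log2 fold change 0.77, standard error 0.08, edgeR adjusted p = 1.36e-04). The span given for Fgfr2 is long and holds other genes, and 3.04% of its exonic bases are shared on the same strand with Ctbp2. Counts per gene do not separate the splice forms of any receptor, so the form that FGF7 and FGF10 prefer was not measured.

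Fgfr3 (ENSMUSG00000054252; chromosome 5, 33721674 to 33737068, plus strand) was far less abundant. It was at 3.49, 4.71, 4.27 and 3.36 CPM in WT and 8.60, 8.97, 8.01 and 7.45 CPM in NG2ko. No NG2ko library came near the WT range, and Fgfr3 was 2.08-fold higher in NG2ko (log2 fold change 1.06, standard error 0.13, edgeR adjusted p = 6.67e-04). It shares 13.9% of its exonic bases with a gene on the opposite strand. Fgfr4, a receptor of liver and muscle precursors, had 0 to 16 counts per library and was not tested.

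On the FPKM scale, which can be compared between genes, the sum of the 4 receptors overlapped between the groups (37.4 to 42.3 in NG2ko and 38.8 to 47.3 in WT) while its make-up did not. Fgfr1 made up 77.2% to 79.3% of receptor FPKM in the WT libraries and 57.5% to 60.7% in the NG2ko libraries. Fgfr2 made up 19.7% to 21.4% in WT and 36.8% to 39.7% in NG2ko, and Fgfr3 0.995% to 1.38% and 2.47% to 2.87%. The ratio of Fgfr1 to Fgfr2 FPKM was 3.61 to 4.03 in WT and 1.45 to 1.65 in NG2ko. These shares restate the 3 receptor changes on a common scale and were not tested again.

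**Figure D4:**
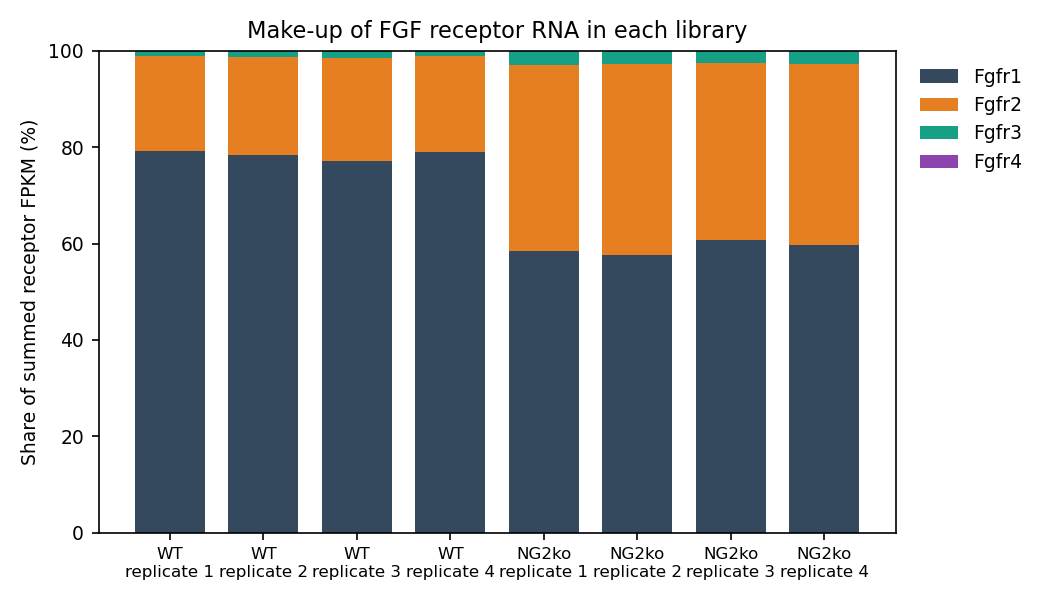
Share of the summed FPKM of Fgfr1 to Fgfr4 that each receptor took in each library, in percent (stacked bars; 4 WT libraries, then 4 NG2ko libraries). The Fgfr1 share is 77.2% to 79.3% in WT and 57.5% to 60.7% in NG2ko, and Fgfr4 is too small to be seen.

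The RNAs of the kinase-less receptor, the docking proteins and the carriers did not pass the test or were too low for it. Fgfrl1, a receptor without a kinase domain, was at 49.3, 43.7, 42.2 and 51.9 CPM in WT and 46.7, 48.2, 46.2 and 46.8 CPM in NG2ko (log2 fold change 0.01, standard error 0.07, edgeR adjusted p = 0.972). Frs2 was at 94.9, 101.4, 88.8 and 79.2 CPM in WT and 94.1, 94.2, 88.2 and 84.4 CPM in NG2ko (log2 fold change -0.01, standard error 0.08, adjusted p = 0.941). In both genes the NG2ko values lay inside the WT range. Frs3, the second docking protein, was at 2.47 to 3.98 CPM in NG2ko and 2.49 to 3.39 CPM in WT (adjusted p = 0.537). Fgfbp3, a carrier that releases FGFs from heparan sulfate, was at 1.498 to 2.04 CPM in NG2ko and 1.48 to 2.83 CPM in WT (adjusted p = 0.566). The related carrier Fgfbp1 was too low to be tested, with 4 counts in each NG2ko library and 12, 11, 19 and 15 in WT, so that the groups did not overlap (two-sided exact permutation p of CPM = 0.0286, n = 4, the smallest this design can give). With no filter on low counts its edgeR adjusted p was 0.214.

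In the order of mean FPKM in WT, Fgf7 (60.8) was followed by Fgfr1 (33.3), Fgfrl1 (14.995), Frs2 (9.30), Fgf13 (8.91), Fgfr2 (8.63), Fgf2 (4.77), Fgf21 (2.14), Fgf5 (1.39) and Fgfbp3 (1.099). Frs2, Fgf13 and Fgfr2 differed from each other by less than the SD of Frs2, 0.976 FPKM, and Fgf2 spread over several of its neighbors. In NG2ko the order at the top was Fgf7 (53.7), Fgfr1 (23.4), Fgfrl1 (15.5) and Fgfr2 (15.2), where Fgfrl1 and Fgfr2 were within the SD of Fgfr2, 1.16 FPKM. Fgf10 was at 0.721 FPKM in WT, below Frs3 (0.814), and at 2.64 FPKM in NG2ko, above Fgf5 (1.47).

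The other genes of the pathway were read from lists that follow the signal from the matrix to the nucleus. The counts in each list stand against 5.45% of all genes tested that were higher and 6.75% that were lower. Heparan sulfate core proteins present ligand to receptor. Of 12 tested, 1 was higher and 2 were lower, with a median log2 fold change of -0.01. Gpc1, a glypican, was higher (564.5 ± 33.6 against 478.8 ± 32.0 CPM, log2 fold change 0.24, adjusted p = 0.0331), and Col18a1, the basement membrane collagen, and Sdc3, a syndecan, were lower (log2 fold changes -0.56 and -0.42, adjusted p = 0.00103 and 0.00136). Gpc6 (-0.36 on the log2 scale, adjusted p = 0.0557) did not pass. Of 18 heparan sulfate enzymes tested, 2 were higher and 5 lower (median -0.05). Sulf1, which removes 6-O-sulfates and so weakens FGF binding, was at 192.0 ± 0.802 CPM in NG2ko and 259.7 ± 18.6 CPM in WT (log2 fold change -0.44, adjusted p = 6.67e-04), Hs2st1, a 2-O-sulfotransferase, and Ndst3, an N-deacetylase and N-sulfotransferase, were lower by log2 fold changes of -0.27 and -0.72, and Hs3st3a1, a 3-O-sulfotransferase, was higher by 0.39. Of 7 membrane partners of FGF receptors, none was higher and 2 were lower: Flrt2, a transmembrane protein that binds FGFR, at 129.4 ± 7.54 against 218.8 ± 23.0 CPM (log2 fold change -0.76, adjusted p = 2.07e-04), and the adhesion molecule Ncam1 (log2 fold change -0.38, adjusted p = 0.00403). Cdh2 (-0.19, adjusted p = 0.0797) and Flrt3 (0.18, adjusted p = 0.202) did not pass.

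Of 20 genes for proteins from the receptor down to ERK 1/2, 3 were higher and 1 was lower (5.45% and 6.75% of all genes tested), with a median log2 fold change of 0.02. Map2k1, which encodes the ERK kinase MEK1, was higher by a log2 fold change of 0.24 (adjusted p = 0.0113) and the docking protein Gab1 by 0.36 (adjusted p = 0.0171). Ptpn11, which encodes the phosphatase SHP2, was lower (log2 fold change -0.22, adjusted p = 0.0251). Mapk3, which encodes ERK1, did not pass (adjusted p = 0.0988). RNA levels do not show how far these proteins were phosphorylated.

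The feedback inhibitors of the pathway were lower as a group in count: of 10 tested, 8 were lower and none was higher, with a median log2 fold change of -0.50, against 6.75% of all genes tested that were lower and a median of 0.02. The dual-specificity phosphatase gene Dusp4 was at 7.28, 5.54, 5.37 and 4.54 CPM in WT and 2.32, 2.76, 2.13 and 1.81 CPM in NG2ko (log2 fold change -1.33, standard error 0.18, edgeR adjusted p = 0.00109). The Sprouty gene Spry4 was at 10.3, 9.46, 8.76 and 10.9 CPM in WT and 5.47, 5.09, 4.88 and 5.57 CPM in NG2ko (log2 fold change -0.91, standard error 0.10, adjusted p = 3.36e-04). In both genes the groups were well apart. Spred3 (-0.69), Spry1 (-0.63), Dusp5 (-0.52), Spry2 (-0.49), Dusp6, the ERK phosphatase (-0.43), and Spred2 (-0.41) were also lower in log2 fold change. Spred1 (-0.14, adjusted p = 0.109) and Dusp7 (0.02, adjusted p = 0.909) did not pass, and Spry3 was not analysed here. Spry1 missed the threshold without NG2ko replicate 4 (adjusted p = 0.0526).

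Of 13 transcription targets, 5 were lower and none was higher (6.75% and 5.45% of all genes tested), with a median of -0.23. The Etv genes, ETS factors that respond to FGF signaling in many tissues, were all lower. Etv5 was at 58.2, 58.5, 56.0 and 57.3 CPM in WT and 33.9, 32.3, 32.2 and 33.6 CPM in NG2ko (log2 fold change -0.80, standard error 0.05, adjusted p = 9.66e-06). Etv1 was lower by a log2 fold change of -1.22 and Etv4 by -0.94. Fosl1, an AP-1 subunit, was lower by -1.06, and Ccnd1, which encodes cyclin D1, fell from 876.5 ± 16.7 to 542.0 ± 10.5 CPM (log2 fold change -0.69, adjusted p = 6.63e-06). The other 8, Egr1 (-0.23, adjusted p = 0.3303), Egr2, Egr3, Fos, Junb, Ier2, Ier3 and Myc (0.14, adjusted p = 0.130), did not pass, and whether they differed from the 5 that did was not tested. Many inputs other than FGF act on these genes, and which receptor they followed was not measured.

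Of 8 tested genes of the FGF23 and phosphate pathway, 1 was higher and 5 were lower (5.45% and 6.75% of all genes tested), with a median of -0.28, although Fgf23 and Kl were at or near 0. Galnt3, which protects FGF23 from cleavage by adding O-glycans, was at 8.94 ± 0.519 CPM in NG2ko and 5.19 ± 0.703 CPM in WT (log2 fold change 0.78, adjusted p = 0.00165). The phosphate transporter Slc20a1 (log2 fold change -0.31), the related Slc20a2 (-0.24), the secretory kinase Fam20c (-0.36), the protease Furin (-0.24) and the matrix protein Dmp1 (-1.90, at 0.226 ± 0.136 against 0.843 ± 0.264 CPM) were lower.

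**Figure D5:**
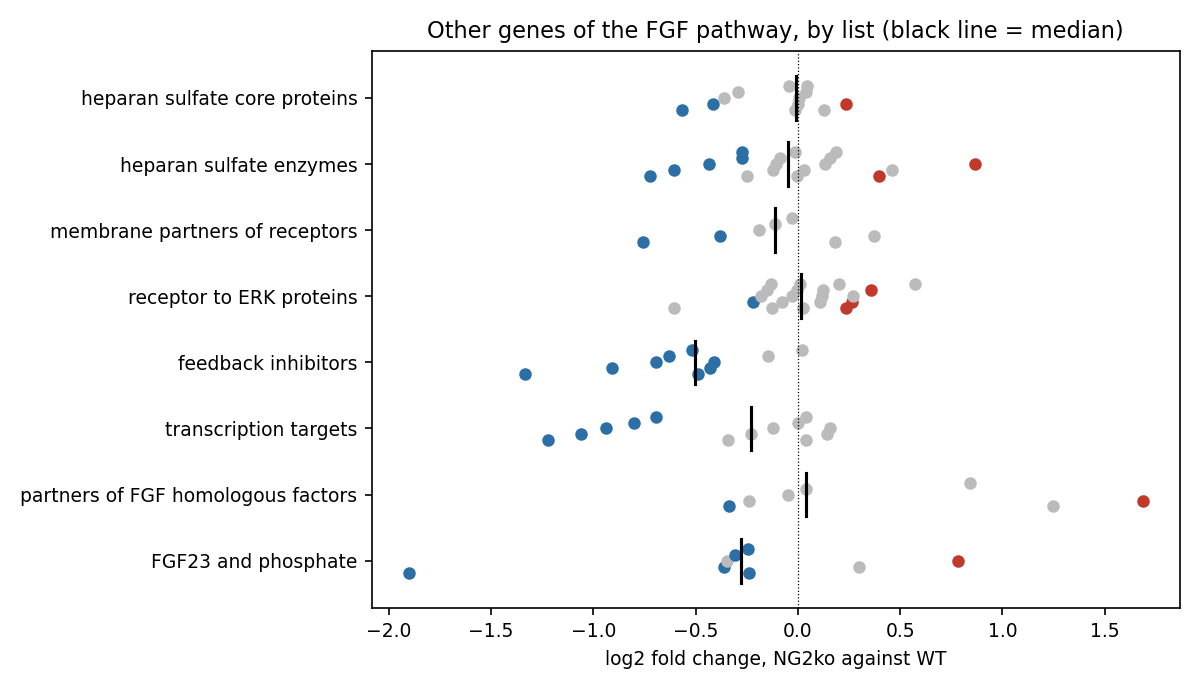
The log2 fold change in NG2ko against WT of each tested gene in the 8 pathway lists (points; red, higher; blue, lower; gray, adjusted p of 0.05 or more; black line, median of the list). The feedback inhibitors have the lowest median, -0.50, with 8 of 10 lower, while the list from receptor to ERK has a median of 0.02.

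Markers of some other cell types were low. The only tested epithelial marker was not called and the list summed to 1.85 to 2.90 CPM in NG2ko and 1.37 to 2.23 CPM in WT, with Epcam, Krt5, Krt8, Krt14 and Krt18 too low to be tested. Endothelial markers summed to 4.69 to 5.89 and 2.69 to 4.12 CPM, mostly from Erg (4.45 ± 0.735 and 1.89 ± 0.732 CPM). Of 4 tested, only Erg was higher (log2 fold change 1.23, edgeR adjusted p = 0.0153). Pecam1 (-0.54), Kdr (-0.53) and Tek (-0.19) lay below 0 on the log2 scale and did not pass. Cdh5 and Vwf were too low to be tested. Of the tested markers, none of 3 for skeletal muscle and none of 4 for neurons and glia passed. The mural markers were not low, summing to 3853 to 4055 CPM in NG2ko and 3813 to 4096 CPM in WT, mostly from Acta2, the smooth muscle actin gene (3349 ± 134.1 and 3182 ± 109.8 CPM). Of 7 tested, Myh11 and Pdgfrb were lower (log2 fold changes -0.79 and -0.29, adjusted p = 0.00332 and 0.0120). The part of these markers in the FGF results was not tested.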

How the data were processed

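Poly(A) RNA of 4 NG2ko and 4 WT cultures was sequenced as stranded paired-end libraries. Per the labels and the study's methods, the authors checked reads with FastQC, aligned them with HISAT2 to the Ensembl release 101 mouse genome, assembled them with StringTie and compared groups with edgeR; in the deposited table each gene has counts in whole numbers (with an excess of 4, 8 and 12, whose origin was not tested) and, beside them, FPKM values from StringTie, without receptor splice forms. The deposited counts were tested with edgeR 4.0.16 in R 4.3.3 (filterByExpr with a count minimum of 10, TMM scaling, robust quasi-likelihood test, Benjamini-Hochberg adjustment over 17190 genes), with genotype as the only term. CPM are counts scaled to library size with TMM factors. FPKM was used for levels between genes. Named genes were every FGF gene and, in each pathway list, up to 4 genes with the smallest p and every called gene of lists with 15 or fewer; others were named after their values were seen, and some listed genes are not reported here. The members and lists were chosen with earlier results of these data known. Motifs were searched in RefSeq promoters. Alternatives were DESeq2 1.42.0, limma 3.58.1 (voom, and FPKM with pseudocounts of 0.1 and 1), other filters and scaling, and an ordinary (not robust) prior. Further ones were a replicate block, leaving out each library, and leaving out the genes of chromosomes X and Y and the myeloid markers. The last of these drops genes, Fgf13 among them, and not cells or donors. On simulated data, the edgeR test recovered 44.4%, 68.2% and 81.2% of tested genes changed 1.5-fold, 2-fold and 4-fold. Of its 135 calls there, 10 were genes that had not been changed. Totals of 60317187 to 83668935 counts per library set the precision, and floors cover counting error only and assume independent fragments.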

Additional observations from a re-analysis of the deposited data

Results flagged for a closer look

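Among the 40 groups of 4 libraries checked, which were the CPM values of the 19 tested FGF genes and of Cspg4 in each genotype, 1 held a library far from the others. It was Fgfr2 in WT replicate 2, at 112.5 CPM, where the other WT libraries lay between 94.8 and 96.6 CPM and the gap was 0.898 of the range of the group. Chance alone gives such a gap in about 1 of 20 groups. This library was the WT one nearest to NG2ko, whose lowest value was 156.7 CPM. Fgfr2 was still called without WT replicate 2. Over all fits that left out a single library, this one included, the log2 fold change of Fgfr2 was 0.72 to 0.84.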

How the results depend on the processing

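Of the 7 changed FGF genes, Fgf10, Fgfr1, Fgfr2, Fgfr3 and Fgf7 kept direction and call in all 18 alternatives, Fgf13 in the 17 that included it, and Fgf21 in 12. Fgf21 missed the threshold in 5 of the 8 leave-one-out fits and with a replicate block (adjusted p = 0.0787). Deviations from the group means correlated weakly between libraries of the same replicate number (-0.00714, 0.0705, 0.0136 and 0.0810). Libraries of different numbers gave -0.0907 to 0.0375, and whether the numbers pair the samples was not tested. The block gave 792 higher and 1023 lower genes, against 937 and 1160. Over the leave-one-out fits, 3 to 4 FGF genes were higher, 3 to 3 lower and 1454 to 1976 genes called in all, and at the study's limits 2, 0 and 552. The FPKM fits called 1202 higher and 913 lower (pseudocount 0.1) and 1206 higher and 925 lower (pseudocount 1), so 56.8% and 56.6% of calls were higher against 44.7%, and the cause was not tested. Signs turned only in FGF genes that were not called: Fgf2 with the block (0.36), voom (0.26) and FPKM (0.32 and 0.15) and when libraries were left out (-0.49 to 0.32), Fgf11 with voom (0.29; left out, -0.82 to 0.10), Fgf18 with voom (0.000225) and FPKM (0.0218; left out, -0.32 to 0.35), Frs2 with FPKM (0.0293 and 0.0264; left out, -0.0789 to 0.0421), and Fgf22 (-0.65 to 0.43), Fgf5 (-0.0232 to 0.10) and Fgfrl1 (-0.0438 to 0.0562) when libraries were left out. Of the pathway calls, Furin was lost in 11 alternatives, Slc20a2 in 10, Gpc1 in 7, Dmp1 in 6, Ptpn11 in 4, and Gab1 and Spry1 in 2. Of the 14 FGF genes that were not tested, 7 had 0 counts in every library and 7 had counts too low for the filter.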
